A study of Mus with 9 samples.

Results

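The genes examined were 7 that make, carry or break down serotonin and histamine, out of 54532 genes in the deposited count table. They are the serotonin transporter Slc6a4, the vesicular transporter Slc18a2, the synthesis enzymes Tph1, Ddc and Hdc, and the monoamine oxidases Maoa and Maob, each found once in the table by its gene name. They were selected on their levels in these same libraries, so those levels are given as a description, with fitted fold changes and standard errors (SE) and no p-value. RNA of mouse bone marrow cells was sequenced in 9 libraries, 3 in each of the groups CCND2mut, CCND2wt and Vec. All 3 groups came from lethally irradiated C57BL/6 recipients of fetal liver cells, taken at embryonic day 12.5 and given with supportive cells. In all 3 groups the donor cells carried a conditional knock-in of AML1-ETO, a leukaemia fusion gene, joined to mCherry, and an MSCV-IRES-EGFP retroviral vector. The vector held cyclin D2 with alanine in place of threonine 280 in CCND2mut, unaltered cyclin D2 in CCND2wt, and no cyclin in Vec. The sample titles name only bone marrow cells, so recipient and supportive cells can be present. Neither the age of the mice nor whether each library is a separate animal is given in the sources used here. If the libraries are not separate animals, the p-values below measure only technical spread.

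Serotonin is made from tryptophan by tryptophan hydroxylase, Tph1 outside the nervous system, followed by the decarboxylase Ddc, and histamine is made from histidine in 1 step by Hdc. Slc18a2 (VMAT2) loads both amines into granules, Slc6a4 takes serotonin back up from outside the cell, and monoamine oxidases break serotonin down. In blood, mast cells and basophils are known for storing histamine, mouse mast cells also make serotonin, and platelets take it up through Slc6a4.

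Library totals were 15043755 to 17593634 counts. Levels are in CPM, counts scaled to library size after TMM normalisation, and a library with 0 counts could have held up to 0.159 to 0.204 CPM, the level of 3 counts. The labelled transgene was not seen as added counts at mouse Ccnd2, which stood at 12.6 to 58.2 CPM in CCND2mut, 7.30 to 11.1 CPM in CCND2wt and 76.2 to 86.2 CPM in Vec. The species of the transgene is not given in the sources used here, so mouse Ccnd2 could not check the labels. Directions below are therefore between libraries labelled with these names. Counts differed least between the 3 CCND2wt libraries, where the chi-square statistic divided by the number of genes was 6.998 to 17.7 in pairs, while it was 53.3 to 148 among CCND2mut or Vec pairs. Both are above counting noise, as repeat libraries of 1 sample could also be, so this does not show 3 separate samples. They were taken as 3 as labelled, and the SE and p-values that involve CCND2wt assume it. Vec 1 stood apart from the other Vec libraries by its haemoglobin counts, 1.51% of the library against 0.0126% in Vec 2 and 0.356% in Vec 4. Its immunoglobulin counts were 0.588% of the library, against 0.0215% in Vec 2 and in Vec 4. Neutrophil markers, described below, summed to 13722 CPM in Vec 1, against 462 and 544 CPM in Vec 2 and Vec 4. Groups did not overlap in 56.7% of 15660 tested genes for CCND2mut against Vec, in 63.1% for CCND2mut against CCND2wt and in 48.3% for CCND2wt against Vec, so that lack of overlap in 1 of the 7 genes is common here.

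The profile of these genes differed by label. CCND2mut libraries held the most Hdc RNA on average and little Slc18a2, CCND2wt libraries held Slc6a4, Tph1 and Slc18a2 together, and Vec libraries held Slc18a2 with almost no Slc6a4. Ddc, Maoa and Maob were low everywhere.

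**Figure D1:**
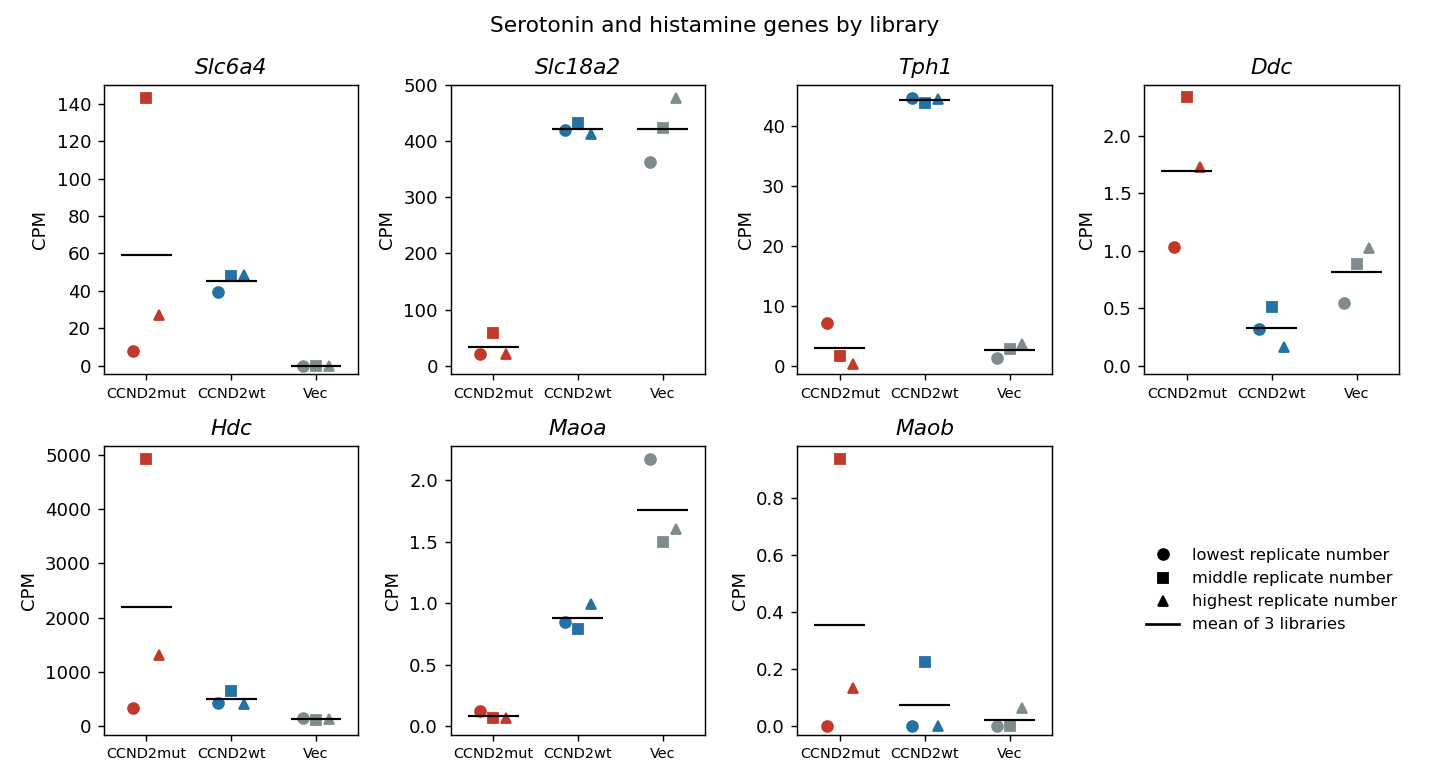
CPM of each of the 7 genes (vertical axis, linear, a separate scale per panel) in the 3 libraries of CCND2mut, CCND2wt and Vec, with marker shapes for the order of replicate numbers within a group and a line at the mean of 3 libraries. Slc6a4 is near 0 in the Vec libraries, Slc18a2 is lowest in CCND2mut, Tph1 is highest in CCND2wt, and CCND2mut 2 holds the highest point for Slc6a4, Ddc, Hdc and Maob.

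Tph1 (ENSMUSG00000040046; mm10 chromosome 7, 46644641 to 46672537, minus strand), the rate-limiting enzyme of serotonin synthesis outside the nervous system, had 7.16, 1.67 and 0.266 CPM in CCND2mut 1, 2 and 3. It had 44.6, 43.7 and 44.4 CPM in CCND2wt 2, 3 and 4, and 1.27, 2.72 and 3.65 CPM in Vec 1, 2 and 4. All CCND2wt libraries were thus above every other library, while CCND2mut and Vec overlapped. The fitted log2 fold change was -3.85 (SE 0.88) for CCND2mut against CCND2wt, 0.27 (SE 0.85) for CCND2mut against Vec and 4.12 (SE 0.90) for CCND2wt against Vec. CCND2mut 1 held most of the CCND2mut counts: without it the values against CCND2wt and Vec were -5.51 and -1.39. Without Vec 1, CCND2mut against Vec was -0.07.

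Ddc (ENSMUSG00000020182; chromosome 11, 11814101 to 11898144, minus strand), which converts the product of Tph1 to serotonin, was at the edge of detection. Its counts were 17, 35 and 26 in CCND2mut 1, 2 and 3, 6, 9 and 3 in CCND2wt 2, 3 and 4, and 9, 13 and 16 in Vec 1, 2 and 4. In CPM this was 1.03, 2.34 and 1.73 in CCND2mut, 0.317, 0.510 and 0.165 in CCND2wt, and 0.543, 0.883 and 1.03 in Vec. The CCND2mut libraries were the highest and the CCND2wt libraries the lowest, with the lowest CCND2mut library just above the highest Vec library (1.032 against 1.026 CPM). The log2 fold change was 1.05 (SE 0.48) for CCND2mut against Vec, 2.33 (SE 0.51) for CCND2mut against CCND2wt and -1.29 (SE 0.53) for CCND2wt against Vec. The order of Ddc was therefore the opposite of that of Tph1 between CCND2wt and both other groups. Antisense genes with 14 and 17 counts over all libraries overlap Ddc and Slc18a2, and without a stated strand setting reads of the 2 strands could not be told apart.

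Hdc (ENSMUSG00000027360; chromosome 2, 126593667 to 126619299, minus strand), the enzyme that makes histamine, was the most abundant of the 7 per length in CCND2mut. It had 346, 4929 and 1320 CPM in CCND2mut 1, 2 and 3, against 427, 661 and 418 CPM in CCND2wt 2, 3 and 4 and 163, 116 and 134 CPM in Vec 1, 2 and 4. In CCND2mut 2 it alone took 0.440% of all counts. Every CCND2mut and CCND2wt library was above every Vec library, while CCND2mut and CCND2wt overlapped because CCND2mut 1 lay below all CCND2wt libraries. Means were 2198 ± 2414 CPM in CCND2mut, 502 ± 138 CPM in CCND2wt and 138 ± 23.4 CPM in Vec (SD, n = 3 each). The log2 fold change was 3.997 (SE 0.84) for CCND2mut against Vec, 2.13 (SE 0.78) for CCND2mut against CCND2wt and 1.87 (SE 0.77) for CCND2wt against Vec. Without CCND2mut 2 the first 2 of these were 2.60 and 0.70.

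Slc6a4 (ENSMUSG00000020838; chromosome 11, 76998603 to 77032340, plus strand), which returns serotonin into the cell, had 1 count in the Vec group, in Vec 4. It had 129, 2142 and 412 counts in CCND2mut 1, 2 and 3 and 749, 851 and 880 counts in CCND2wt 2, 3 and 4, which is 7.83, 143 and 27.4 CPM in CCND2mut and 39.6, 48.2 and 48.4 CPM in CCND2wt. The summed ratio to Vec was 2705 for CCND2mut (95% counting interval 485 to 106900) and 2125 for CCND2wt (interval 381 to 83974), both covering counting error only. Without CCND2mut 2, which held most of the CCND2mut counts, the ratio was 805 (interval 144 to 31842). Without Vec 4 no Vec count was left, and Slc6a4 was at least 602-fold higher in CCND2mut and at least 473-fold higher in CCND2wt, from a floor of 3 counts over the group. CCND2mut lay on both sides of CCND2wt, with 2 libraries below it and CCND2mut 2 above it. The fitted log2 difference between CCND2mut and CCND2wt was 0.39 (SE 0.82), and it was -1.40 without CCND2mut 2.

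Slc18a2 (ENSMUSG00000025094; chromosome 19, 59260878 to 59296012, plus strand), which loads serotonin and histamine into vesicles, had 20.4, 58.5 and 21.1 CPM in CCND2mut 1, 2 and 3. It had 421, 432 and 412 CPM in CCND2wt 2, 3 and 4, and 362, 424 and 477 CPM in Vec 1, 2 and 4. The highest CCND2mut library was far below the lowest of the other groups, and CCND2wt lay within the range of Vec. The log2 fold change was -3.66 (SE 0.41) for CCND2mut against Vec, the same to 2 decimals against CCND2wt, and 0.00 (SE 0.37) for CCND2wt against Vec. Without CCND2mut 2 the values for CCND2mut were -4.35 against Vec and -4.38 against CCND2wt. In marrow of many cell types, fewer cells of a type and less RNA per cell cannot be told apart.

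The monoamine oxidases of the outer mitochondrial membrane were low. Maoa (ENSMUSG00000025037; chromosome X, 16619698 to 16687818) had 2, 1 and 1 counts in CCND2mut 1, 2 and 3, 16, 14 and 18 counts in CCND2wt 2, 3 and 4, and 36, 22 and 25 counts in Vec 1, 2 and 4. The groups were ordered with no overlap, at 0.0849 ± 0.0317 CPM in CCND2mut, 0.877 ± 0.102 CPM in CCND2wt and 1.76 ± 0.364 CPM in Vec (SD, n = 3 each). The log2 fold change was -4.24 (SE 0.43) for CCND2mut against Vec, -3.24 (SE 0.44) for CCND2mut against CCND2wt and -0.998 (SE 0.32) for CCND2wt against Vec. Maob (ENSMUSG00000040147; chromosome X, 16709282 to 16817366) did not pass the filter on low counts and was the only one of the 7 left out of the fit. It had 0, 14 and 2 counts in CCND2mut 1, 2 and 3, 0, 4 and 0 counts in CCND2wt 2, 3 and 4, and 0, 0 and 1 counts in Vec 1, 2 and 4, with overlap among all groups.

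Ratios of levels per gene length within a library do not depend on how libraries are scaled to each other. The ratio of Hdc to Slc18a2 was 10.1, 50.2 and 37.3 in CCND2mut 1, 2 and 3, against 0.604, 0.912 and 0.604 in CCND2wt 2, 3 and 4 and 0.267, 0.163 and 0.167 in Vec 1, 2 and 4. The histamine enzyme thus exceeded the vesicular transporter per length in each CCND2mut library and in no other. The ratio of Tph1 to Slc6a4 was 0.672, 0.00857 and 0.00713 in CCND2mut 1, 2 and 3, against 0.826, 0.666 and 0.673 in CCND2wt 2, 3 and 4. CCND2mut 1 lay within the range of CCND2wt, and CCND2mut 2 and 3 were far below it. Within CCND2mut, Hdc and Slc6a4 varied together: the highest library was 14.2 times the lowest for Hdc and 18.3 times for Slc6a4, while the ratio of Hdc to Slc6a4 per length stayed at 31.3, 24.4 and 34.2. In CCND2wt that ratio was 7.64, 9.73 and 6.13.

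**Figure D2:**
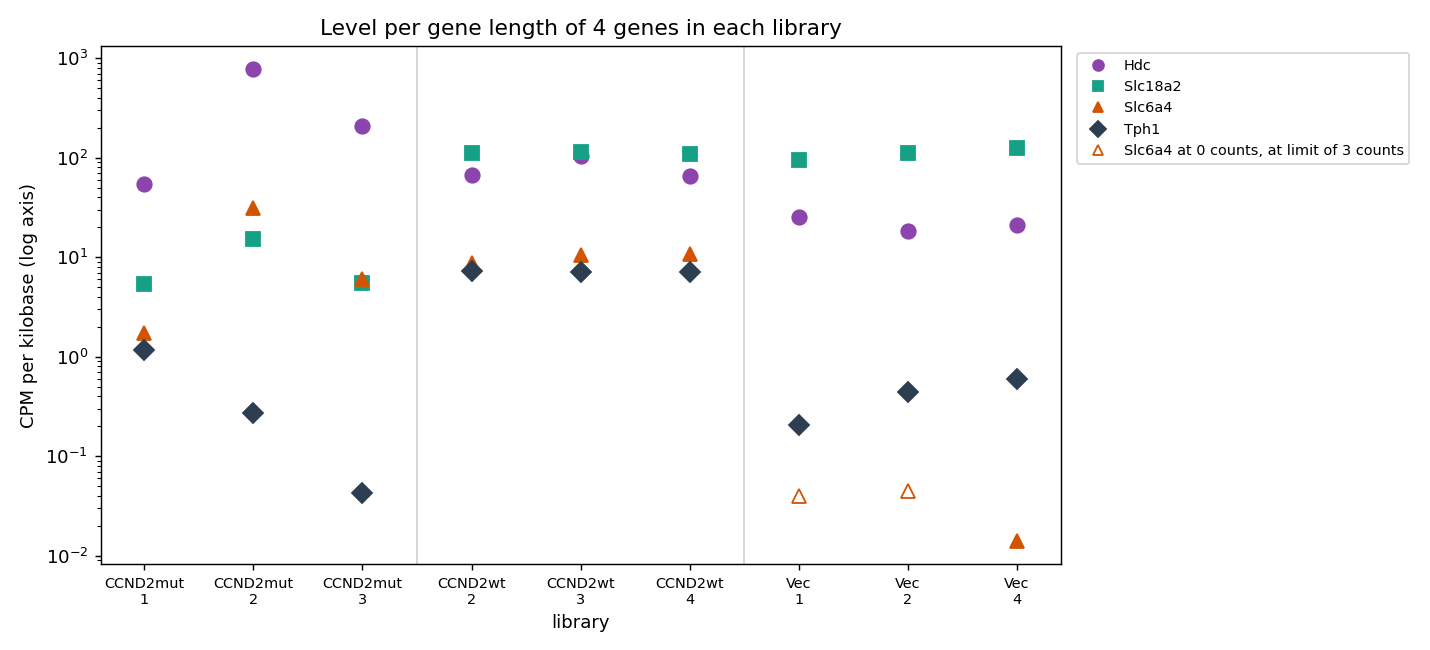
CPM per kilobase of gene length (vertical log axis) of Hdc, Slc18a2, Slc6a4 and Tph1 in each of the 9 libraries, in the order CCND2mut, CCND2wt, Vec. Open triangles stand at the level of 3 counts for Slc6a4 in Vec 1 and Vec 2, which had 0 counts. Hdc is the highest of the 4 genes in each CCND2mut library and Slc18a2 in each other library.

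Across the 9 libraries, Pearson's r of log2(CPM + 1) between pairs of these genes was 0.86 for Slc6a4 with Hdc, 0.41 for Slc6a4 with Tph1 and -0.09 for Tph1 with Hdc. It was 0.87 for Slc18a2 with Maoa and -0.56 for Slc18a2 with Hdc. These points share libraries and fall into 3 groups, so the values only describe the pattern. Among 10870 protein-coding genes that averaged 5 CPM or more in their highest group, those most like Slc6a4 were Bcar3 (r = 0.98), Acsbg1 (0.97) and Blm (0.97). Acsbg1, an acyl-CoA synthetase, had 4.86, 59.2 and 22.9 CPM in CCND2mut 1, 2 and 3, 14.9, 14.4 and 16.3 CPM in CCND2wt 2, 3 and 4, and 1.33, 0.679 and 1.03 CPM in Vec 1, 2 and 4. Its order within CCND2mut was that of Slc6a4, which largely follows from choosing it by r over these libraries and is no separate result. Most like Hdc were Hist1h3d, Spink2 (both r = 0.99) and Axin2 (0.98). Most like Slc18a2 were Prdm11 (r = 0.998), Snx29 and Mitf (both 0.997). Mitf, a transcription factor known from mast cells and melanocytes, had 4.07, 20.6 and 5.31 CPM in CCND2mut, 137, 161 and 126 CPM in CCND2wt, and 129, 167 and 178 CPM in Vec. Tph1 was most like Chml (0.98), Car8 and Cenpt (both 0.97). Ddc was most like Pde12 (0.99), Gprc5b (0.97) and Dym (0.96), and Maoa most like Traf5 (0.996), B3galt2 and Sytl4 (both 0.99).

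The wider pathway was described with 65 other genes for cofactors, transport, breakdown, storage and receptors, of which 33 passed the filter on low counts and 12 had 0 counts in all libraries. A gene was called at an edgeR adjusted p under 0.05, adjusted over all 15660 tested genes. In CCND2mut against Vec 3 rose and 13 fell, where 51.8% of all tested genes were called (24.9% higher and 26.9% lower), and the median log2 fold change was -0.23, beside -0.03 over all tested genes. In CCND2mut against CCND2wt 6 rose and 8 fell, where 47% of all tested genes were called (23.2% higher and 23.8% lower), with a median of -0.33 beside 0.02. In CCND2wt against Vec 4 rose and 6 fell, where 18.8% of all tested genes were called (9.71% higher and 9.05% lower), with a median of -0.12 beside -0.04. The shares called among the 33 were thus 48.5%, 42.4% and 30.3%, the first 2 near or below the share of all genes. Both comparisons with Vec use the same Vec libraries.

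The calls of CCND2wt against Vec rest on the 3 closely similar CCND2wt libraries. Leaving out CCND2wt 2, 3 or 4 left 2, 3 or 4 of the 10 pathway calls, and leaving out Vec 2 left 6. With the 3 CCND2wt libraries summed to 1 sample, which was tried after seeing the data, edgeR called 0 of 39 pathway genes for CCND2wt against Vec, with 8 at an unadjusted p under 0.05. It then called 9 for CCND2mut against Vec and 8 for CCND2mut against CCND2wt.

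**Figure D3:**
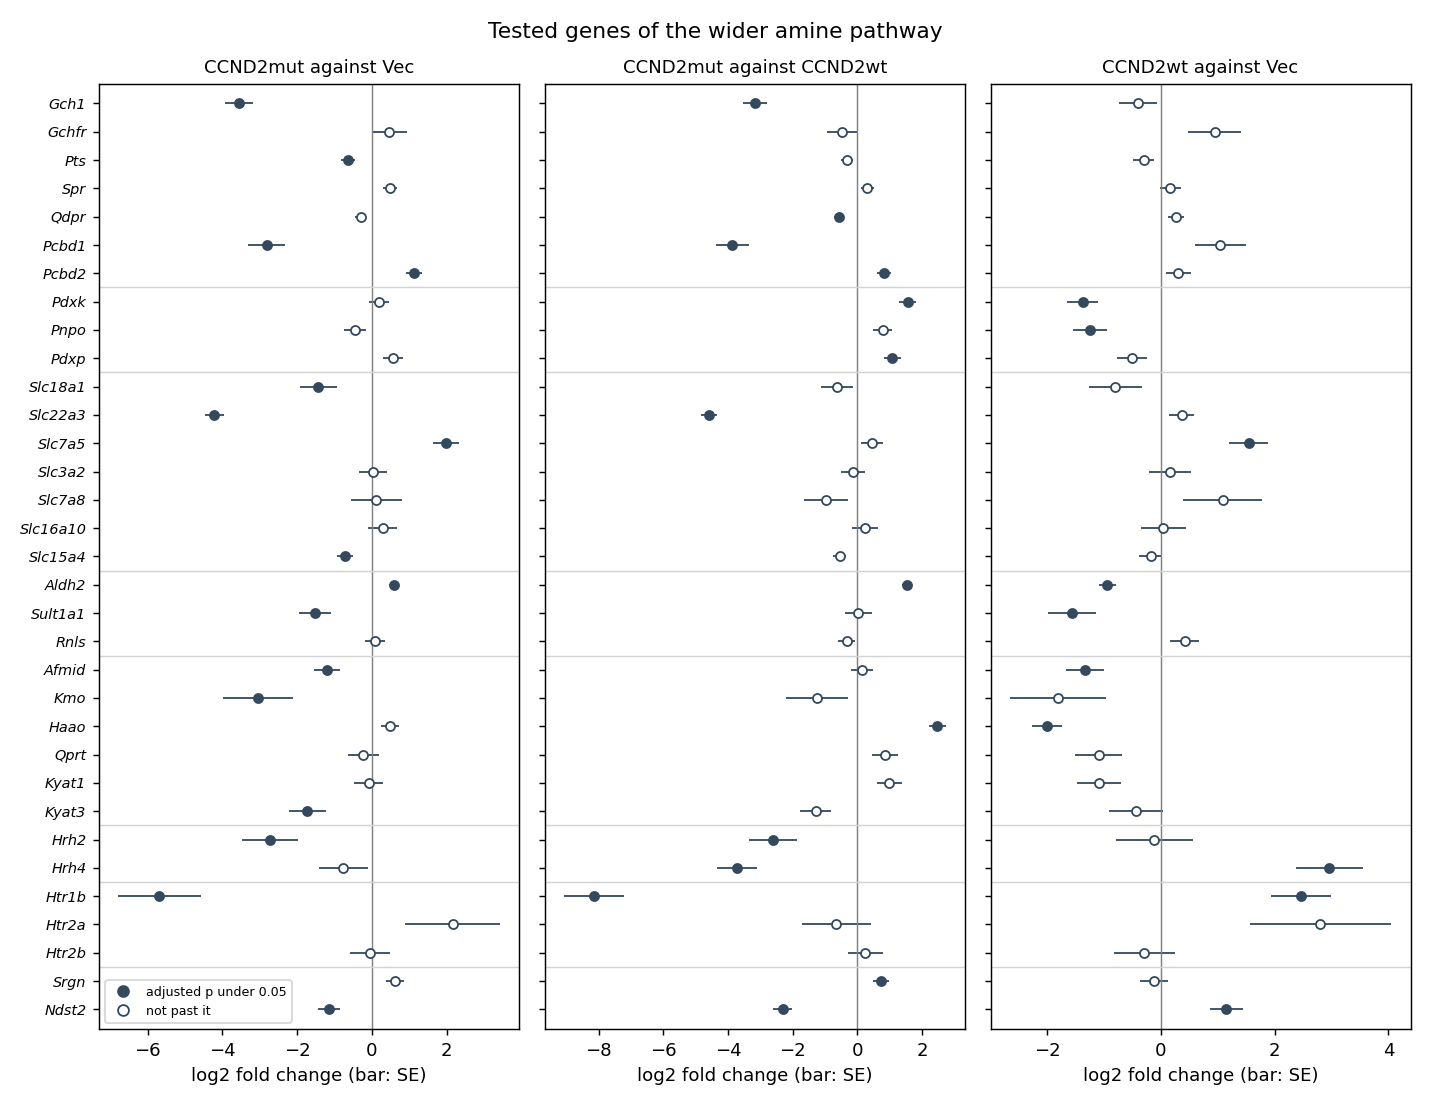
Fitted log2 fold change (horizontal axis, each panel on its own scale; bars are SE) of the 33 tested genes of the wider pathway in each comparison, with filled points for an edgeR adjusted p under 0.05 and grey lines between roles. Gch1, Pcbd1, Slc22a3, Hrh2, Htr1b and Ndst2 fell in CCND2mut against both other groups. Htr1b had 0 counts in CCND2mut, so the position of its points there depends on the fit and is not a size.

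Of 7 genes of tetrahydrobiopterin, the cofactor of tryptophan hydroxylase, 1 rose and 3 fell in CCND2mut against Vec, 1 rose and 3 fell against CCND2wt, and none was called in CCND2wt against Vec. The share called was 57.1% in both comparisons of CCND2mut, close to the 51.8% and 47% of all tested genes, which does not set the list apart, and 18.8% of all genes were called in the third. Gch1, the first and rate-limiting enzyme of its synthesis, had 28.8, 27.6 and 11.4 CPM in CCND2mut 1, 2 and 3, 189, 211 and 207 CPM in CCND2wt 2, 3 and 4, and 225, 360 and 213 CPM in Vec 1, 2 and 4. It fell by 3.56 on the log2 scale in CCND2mut against Vec (SE 0.37, edgeR adjusted p = 0.000168) and by 3.16 against CCND2wt (SE 0.37, adjusted p = 0.000272 in edgeR). Pcbd1, which recycles the cofactor, fell to 0.425, 1.47 and 0.332 CPM in CCND2mut, against 11.4, 10.2 and 11.01 CPM in CCND2wt and 6.03, 5.64 and 4.10 CPM in Vec. Its log2 fold change was -3.87 against CCND2wt (SE 0.52, edgeR adjusted p = 0.000494), or -4.85 without CCND2mut 2. Its relative Pcbd2 rose by 1.125 against Vec (SE 0.22, edgeR adjusted p = 0.00289). Of the 3 genes for pyridoxal phosphate, the cofactor of Ddc and Hdc, none was called in CCND2mut against Vec. Pdxk and Pdxp rose in CCND2mut against CCND2wt, with Pdxk, the kinase that makes the cofactor, at 1.56 (SE 0.27, adjusted p = 0.0019 in edgeR).

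Among 12 transporters of amines and aromatic amino acids, 7 passed the filter. Slc22a3, a low-affinity carrier of histamine and serotonin across the cell membrane, had 10.3, 10.01 and 6.58 CPM in CCND2mut 1, 2 and 3, 219, 208 and 218 CPM in CCND2wt 2, 3 and 4, and 152, 130 and 219 CPM in Vec 1, 2 and 4. It fell by 4.22 on the log2 scale in CCND2mut against Vec (SE 0.25, edgeR adjusted p = 1.67e-05) and its log2 fold change against CCND2wt was -4.585 (SE 0.26, adjusted p = 1.09e-05 in edgeR). CCND2mut thus had less RNA of both Slc18a2 and Slc22a3 than the other groups. Slc7a5, which brings in tryptophan, rose by 1.99 in CCND2mut against Vec (SE 0.35, edgeR adjusted p = 0.00191). It rose by 1.54 in CCND2wt against Vec (SE 0.34, edgeR adjusted p = 0.0184), with adjusted p of 0.0565 and 0.0615 without Vec 2 or Vec 4 and 0.0643, 0.0586 and 0.0646 without CCND2wt 2, 3 or 4. Its partner chain Slc3a2 stood at 0.04 and 0.17 in the same comparisons. The other vesicular transporter, Slc18a1, was at most 1.56 CPM, and the dopamine and noradrenaline transporters Slc6a3 and Slc6a2 had 2 and 7 counts over all 9 libraries.

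Enzymes of breakdown were few. Hnmt, which methylates histamine, did not pass the filter, with 0, 0.134 and 0 CPM in CCND2mut, 0.0529, 0 and 0 CPM in CCND2wt, and 2.47, 0.543 and 0.128 CPM in Vec. Aoc1, which oxidises histamine outside the cell, was at most 0.170 CPM. Aldh2, which oxidises the aldehydes that monoamine oxidases produce, had 572, 510 and 550 CPM in CCND2mut, 199, 182 and 185 CPM in CCND2wt, and 443, 322 and 319 CPM in Vec. It rose in CCND2mut against CCND2wt (1.53, SE 0.15, edgeR adjusted p = 0.000104) and against Vec (0.59, SE 0.14, edgeR adjusted p = 0.0088), and fell in CCND2wt against Vec (-0.94, SE 0.15, edgeR adjusted p = 0.004425). Sult1a1, a sulphotransferase, fell in CCND2mut against Vec (-1.52, SE 0.42, edgeR adjusted p = 0.0148, or 0.0502 without CCND2mut 3). It also fell in CCND2wt against Vec (-1.56, SE 0.41, edgeR adjusted p = 0.0337), with adjusted p of 0.0667 to 0.123 when CCND2wt 2, 3 or 4, Vec 1 or Vec 4 was left out. In the kynurenine route, which takes tryptophan away from serotonin, the entry enzymes Ido1, Ido2 and Tdo2 did not pass the filter and were at most 0.200, 0.0603 and 0.705 CPM. Of the 6 tested genes of the route none rose and 3 fell in CCND2mut against Vec, 1 rose and none fell in CCND2mut against CCND2wt, and none rose and 2 fell in CCND2wt against Vec. These are 50%, 16.7% and 33.3% of the 6, beside 51.8%, 47% and 18.8% of all tested genes, so the first does not set the route apart. The 3 that fell in CCND2mut against Vec were Afmid (-1.20, edgeR adjusted p = 0.0174), Kyat3 (-1.72, adjusted p = 0.0173) and Kmo (-3.05, adjusted p = 0.0244). Kmo stood at -1.32 without Vec 1 (adjusted p = 0.1 in edgeR), and its adjusted p was 0.0685 and 0.0607 without CCND2mut 1 or 3. Haao, a later enzyme of that route, had 12.9, 24.4 and 15.4 CPM in CCND2mut, 3.33, 3.002 and 3.14 CPM in CCND2wt, and 14.2, 12.1 and 11.5 CPM in Vec. It rose by 2.47 in CCND2mut against CCND2wt (SE 0.26, edgeR adjusted p = 0.000167) and fell by 1.99 in CCND2wt against Vec (SE 0.26, edgeR adjusted p = 0.00238).

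Of 14 serotonin receptors 3 passed the filter and 7 had 0 counts in all libraries, and of 4 histamine receptors 2 passed. Htr1b, a receptor that acts through inhibitory G proteins, had 0 counts in each CCND2mut library, against 35, 38 and 44 counts in CCND2wt 2, 3 and 4 and 9, 7 and 2 counts in Vec 1, 2 and 4. It was at least 33.1-fold lower in CCND2mut than in CCND2wt and at least 5.95-fold lower than in Vec, from a floor of 3 counts over the group (edgeR adjusted p = 0.000633 and 0.0054). It rose by 2.46 in CCND2wt against Vec (SE 0.53, edgeR adjusted p = 0.023), with adjusted p of 0.0551 without Vec 2 and 0.0806, 0.0847 and 0.0985 without CCND2wt 2, 3 or 4. Hrh4, a histamine receptor of blood cells, had 0.182, 0.334 and 0.399 CPM in CCND2mut, 5.61, 3.80 and 2.92 CPM in CCND2wt, and 1.03, 0.204 and 0.321 CPM in Vec. It fell by 3.73 in CCND2mut against CCND2wt (SE 0.63, edgeR adjusted p = 0.00152) and rose by 2.96 in CCND2wt against Vec (SE 0.59, edgeR adjusted p = 0.0116). The rise over Vec was 3.95 without Vec 1, and had adjusted p = 0.055 without CCND2wt 2 in edgeR. Hrh2, a histamine receptor that raises cyclic AMP, had 7.77, 0.467 and 2.13 CPM in CCND2mut, 25.2, 19.3 and 19.4 CPM in CCND2wt, and 27.0, 22.5 and 19.6 CPM in Vec. It fell by 2.73 in CCND2mut against Vec (SE 0.74, edgeR adjusted p = 0.0148) and by 2.61 against CCND2wt (SE 0.74, edgeR adjusted p = 0.0189). Without CCND2mut 1 these values were -4.14 and -4.03, without CCND2mut 3 the adjusted p were 0.0519 and 0.0634 in edgeR, and without CCND2wt 2 that against CCND2wt was 0.0562.

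Amines are held in mast cell granules by heparin on the proteoglycan serglycin. Ndst2, which sulphates heparin, had 46.9, 104 and 50.0 CPM in CCND2mut, 363, 289 and 339 CPM in CCND2wt, and 135, 163 and 146 CPM in Vec. It fell by 2.30 in CCND2mut against CCND2wt (SE 0.30, edgeR adjusted p = 0.000443) and by 1.15 against Vec (SE 0.29, edgeR adjusted p = 0.0102), without overlap in either case. It rose by 1.15 in CCND2wt against Vec (SE 0.29, adjusted p = 0.0275 in edgeR), a call that was lost when any of the 6 libraries of these 2 groups was left out (adjusted p 0.06 to 0.0971). Srgn, serglycin itself, was abundant everywhere, at 1860 to 3370 CPM in CCND2mut, 1332 to 1613 CPM in CCND2wt and 1357 to 1855 CPM in Vec. It rose by 0.74 in CCND2mut against CCND2wt (SE 0.24, edgeR adjusted p = 0.0327), with adjusted p of 0.0959 without CCND2mut 2 and 0.107, 0.0573 and 0.108 without CCND2wt 2, 3 or 4.

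Markers of the cell types that could supply these genes also differed between libraries. The summed level of 11 mast cell markers was 1336, 10442 and 2368 CPM in CCND2mut 1, 2 and 3, 18283, 18637 and 18219 CPM in CCND2wt 2, 3 and 4, and 9014, 8162 and 11217 CPM in Vec 1, 2 and 4. Most of this sum came from the proteases Cpa3 and Cma1, and Cpa3 is named after its values were seen. Cma1 averaged 459 CPM in CCND2mut, 6242 CPM in CCND2wt and 446 CPM in Vec, while Cpa3 averaged 3441 CPM in CCND2mut, 8446 CPM in CCND2wt and 7716 CPM in Vec and was not called in any comparison (edgeR adjusted p 0.125 to 0.904). The tryptase Tpsab1 had 3.95, 31.3 and 5.11 CPM in CCND2mut, 4.66, 4.82 and 6.82 CPM in CCND2wt, and 0.121, 0 and 0.128 CPM in Vec. CCND2mut 2, the library with the most Hdc and Slc6a4, also held the most mast cell and basophil marker RNA of its group. Of 10 tested mast cell markers 3 rose and 2 fell in CCND2mut against Vec, none rose and 5 fell in CCND2mut against CCND2wt, and 5 rose and none fell in CCND2wt against Vec. Each is 50% of the markers, beside 51.8%, 47% and 18.8% of all tested genes. Of the 5 rises in CCND2wt against Vec, 2, 3 and 2 were still called without CCND2wt 2, 3 and 4, 4, 2 and 3 without Vec 1, 2 and 4, and 0 with the CCND2wt libraries summed. With the replicate block 2 of these 5 were still called, and 2 with no filter on low counts. DESeq2 gave an adjusted p for 2 of the 5, both still called, and none for the other 3. Among the falls in CCND2mut against CCND2wt, Mcpt4 had edgeR adjusted p of 0.0762, 0.0726 and 0.0742 without CCND2wt 2, 3 or 4. Its adjusted p was 0.0805, 0.00151 and 0.0909 in edgeR without CCND2mut 1, 2 or 3. The replicate block gave Mcpt4 an edgeR adjusted p of 0.0776. With no filter on low counts, Mcpt4 stood at 0.13 and Cma1 at 0.0567 (edgeR adjusted p). In CCND2mut against Vec the tryptases Tpsab1 and Tpsb2 and the protease Mcpt4 rose, while the receptor Kit and the prostaglandin D synthase Hpgds fell, with Kit at -3.28 (SE 0.29, edgeR adjusted p = 6.98e-05). The Tpsb2 call was lost without Vec 2 (adjusted p = 0.0522 in edgeR). Tpsab1 and Mrgprb2 were at 0 in Vec 2, and Mrgprb2 also in CCND2wt 2 and 4. Their part in the levels of Hdc, Slc6a4, Tph1 and Slc18a2 was not tested.

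**Figure D4:**
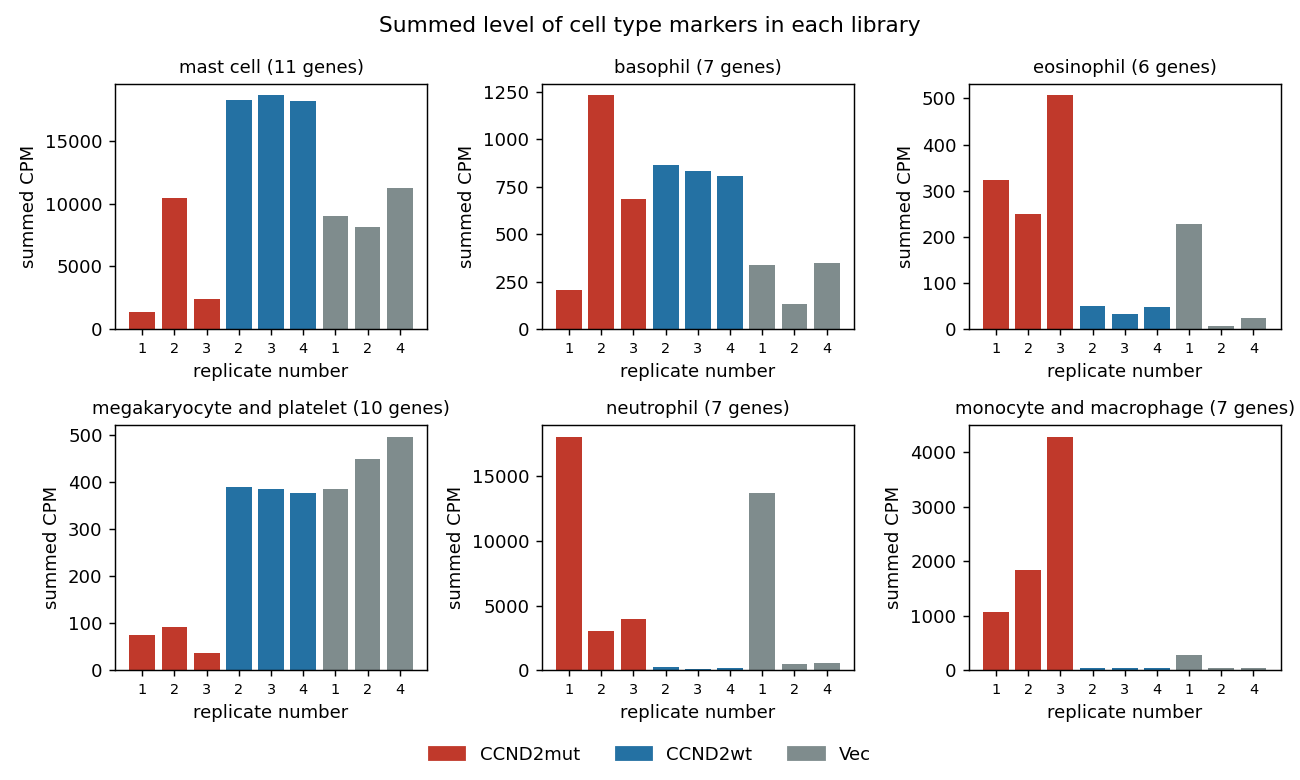
Summed CPM of the markers of 6 blood cell types (vertical axis from 0, a separate scale per panel) in each library, coloured by group and labelled by replicate number. Mast cell markers are highest in the CCND2wt libraries, basophil markers are highest in CCND2mut 2, and megakaryocyte and platelet markers are lowest in the CCND2mut libraries.

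The other lists moved in their own ways. The summed level of 7 basophil markers, 2 of them shared with the mast cell list, was 208, 1232 and 687 CPM in CCND2mut, 867, 833 and 806 CPM in CCND2wt, and 336, 135 and 348 CPM in Vec, with none at 0. The basophil protease Mcpt8, named after its values were seen, had 146, 858 and 534 CPM in CCND2mut, 504, 462 and 431 CPM in CCND2wt, and 216, 88.3 and 219 CPM in Vec. Within CCND2mut its order was that of Hdc and Slc6a4, which not every marker of the list had. Ms4a2 had the same order, at 37.7, 154 and 61.8 CPM in CCND2mut 1, 2 and 3. Prss34 did not, at 0.425, 12.15 and 13.5 CPM, nor did Fcer1a, at 1.76, 10.1 and 0.664 CPM. These too are named after their values were seen, and a link of basophils to Hdc or Slc6a4 was not tested. The 10 megakaryocyte and platelet markers summed to 74.7, 92.9 and 36.7 CPM in CCND2mut, 391, 385 and 376 CPM in CCND2wt, and 387, 450 and 498 CPM in Vec. Of these, the chemokine Pf4 was at most 5.07 CPM, Gp1bb had 0 counts throughout, and Ppbp was at 0 in Vec 4, Tubb1 in CCND2wt 4 and Treml1 in CCND2mut 2 and 3. Of the 7 tested, 1 rose and 4 fell in CCND2mut against Vec and also against CCND2wt. That is 71.4%, beside 51.8% and 47% of all tested genes, and none was called in CCND2wt against Vec. The marker that rose was Ppbp, at log2 3.95 against Vec and 3.98 against CCND2wt without CCND2mut 2 (edgeR adjusted p = 0.0319 and 0.0325). Against CCND2wt its edgeR adjusted p was 0.055 and 0.0514 without CCND2wt 2 or 3. With the replicate block the edgeR adjusted p of Ppbp was 0.104 against Vec and 0.0866 against CCND2wt. The fall of Itga2b against CCND2wt had edgeR adjusted p of 0.0513, 0.0646 and 0.0627 without CCND2wt 2, 3 or 4. The 7 neutrophil markers summed to 18076, 3033 and 3971 CPM in CCND2mut, 239, 133 and 181 CPM in CCND2wt, and 13722, 462 and 544 CPM in Vec, and were highest in CCND2mut 1, where Hdc was lowest of its group. The 7 monocyte and macrophage markers summed to 1076 to 4286 CPM in CCND2mut, 40.0 to 41.1 CPM in CCND2wt and 43.5 to 291 CPM in Vec. The 6 eosinophil markers summed to 250 to 507 CPM in CCND2mut, 32.7 to 50.3 CPM in CCND2wt and 6.79 to 228 CPM in Vec, with Epx and Prg3 at 0 in Vec 2.

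Of 7 markers of nerve and neuroendocrine cells, summed levels were 0.546, 9.35 and 2.86 CPM in CCND2mut 1, 2 and 3, 0.476 to 0.850 CPM in CCND2wt and 0.603 to 0.833 CPM in Vec, and Chga made up most of the 2 highest sums. Th and Dbh, which make catecholamines, had 0 counts in all 9 libraries, and the serotonergic neuron factor Fev had 2 counts in all. Tph2, the tryptophan hydroxylase of neurons, had counts in 3 libraries and was at most 0.200 CPM. The granule protein Chga, named after its values were seen, was at 0, 8.75 and 2.32 CPM in CCND2mut 1, 2 and 3 and at most 0.272 CPM in every CCND2wt and Vec library.

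Among 14 known regulators of mast cell and serotonergic genes, 11 passed the filter. In CCND2mut against Vec 1 rose and 7 fell, in CCND2mut against CCND2wt 1 rose and 6 fell, and in CCND2wt against Vec none rose and 1 fell. These are 72.7%, 63.6% and 9.09% of the 11, beside 51.8%, 47% and 18.8% of all tested genes. Mitf fell by 3.99 in CCND2mut against Vec (SE 0.58, edgeR adjusted p = 0.000778), or by 5.08 without CCND2mut 2. Stat5a, which signals from cytokine receptors, had 86.2, 64.0 and 54.3 CPM in CCND2mut, against 296, 263 and 294 CPM in CCND2wt and 306, 280 and 356 CPM in Vec, and fell by 2.20 against Vec (SE 0.18, edgeR adjusted p = 5.66e-05). Gata2, a factor of mast cells and basophils that is named after its values were seen, had 140, 715 and 287 CPM in CCND2mut 1, 2 and 3, 614, 593 and 638 CPM in CCND2wt, and 342, 510 and 457 CPM in Vec. It was not called in any of the 3 comparisons (edgeR adjusted p 0.277 to 0.753). Within CCND2mut its order was that of Hdc and Slc6a4, as was that of Mitf and Gata1. The other tested regulators, compared after their values were seen, had other orders. Stat5a, Stat5b, Tal1 and Gata3 were highest in CCND2mut 1, Cebpa and Sp1 were highest in CCND2mut 3, and Klf4 and Runx1 were lowest in CCND2mut 3.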

How the data were processed

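The authors deposited raw read counts per gene for 9 libraries of mouse marrow RNA. Per the submitters' processing notes, CASAVA 1.8, fastp, HISAT2 2.0.5, featureCounts 1.5.0-p3 and DESeq2 1.20.0 were used with the mm10 build. The annotation release, and whether counting used strand, is not given in the sources used here. Gene lengths are those deposited by the authors. Groups were taken from the sample titles, and the 7 genes and all lists were chosen with earlier results of these data known; 1 gene of the wider pathway is not reported here and was left out of its counts.

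Genes were filtered with filterByExpr, scaled by TMM factors and fitted in 1 edgeR 4.0.16 quasi-likelihood model (R 4.3.3, robust, 6 residual degrees of freedom) over all 9 libraries, with Benjamini-Hochberg adjustment over 15660 genes and a threshold of 0.05. SE came from the fold change and its F statistic. The test was tested on simulated data with known 2-fold and 4-fold changes. It recovered 14% of the 2-fold changes in CCND2wt against Vec, 25.3% in CCND2mut against Vec and 21.4% in CCND2mut against CCND2wt. For 4-fold changes these shares were 63.9%, 66.0% and 59.1%. A gene that was not called can therefore still have changed. Where a group summed to fewer than 4 counts, a ratio with an exact 95% interval was used. Intervals and floors cover counting error only. Named list genes were those past the threshold, at most 4 per list by smallest adjusted p, together with receptors, storage genes and breakdown enzymes by role, and others are said to be named after their values were seen; the genes most like each member were the 3 with the highest Pearson r. Alternatives were RLE scaling, DESeq2 1.42.0, no filter, a stricter filter of 1 CPM in 3 libraries, only the 2 groups compared, the replicate number as a block, and each library left out in turn.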

Additional observations from a re-analysis of the deposited data

How the results depend on the processing

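Under the settings tried, no fold change of a list gene named with a call changed sign. Among the 7 genes the sign changed for Tph1 in CCND2mut against Vec (-1.39 without CCND2mut 1 and -0.07 without Vec 1), for Slc6a4 in CCND2mut against CCND2wt (-1.40 without CCND2mut 2) and for Slc18a2 in CCND2wt against Vec, which stayed within -0.07 to 0.10. RLE scaling, DESeq2 and the stricter filter lost none of the calls followed for list genes (16 in CCND2wt against Vec, 35 in CCND2mut against Vec and 30 in CCND2mut against CCND2wt), apart from 3 in each comparison for which DESeq2 gave no adjusted p. Leaving out single libraries lost 12, 8 and 6 of them in that order of comparisons, and the CCND2wt libraries summed to 1 sample, a setting chosen after seeing the data, lost 16, 9 and 13. The replicate block lost 9, 8 and 5, no filter on low counts 6, 6 and 5, and a fit of only the 2 groups compared 0, 7 and 0.

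In CCND2wt against Vec 2938 genes were called, 1636 with the replicate block, 39 with CCND2wt summed, and 1019 to 3817 when single libraries were left out (1044, 1194 and 1019 without CCND2wt 2, 3 and 4). Of wider pathway genes 10 were called, 16 in a fit of only the 2 groups compared, 5 with the replicate block, 0 with CCND2wt summed and 2 to 12 with single libraries left out. In CCND2mut against Vec 16 pathway genes were called, 9 in a fit of only the 2 groups and 9 with CCND2wt summed. In CCND2mut against CCND2wt 7360 genes and 14 pathway genes were called, and 2378 and 8 with CCND2wt summed. The summed setting has fewer samples. The groups share only a number in their titles, 2 numbers for each pair of groups, with correlations of deviations from group means of -0.07 to 0.19, so the block is not a pairing by design. With the block, Hdc stood at 3.28 in CCND2mut against Vec and Tph1 at -4.65 in CCND2mut against CCND2wt. Counts were under about 20 in every library of some groups. Among the 7 genes this held for Maob throughout, Slc6a4 in Vec, Ddc in CCND2wt and Vec, and Maoa in CCND2mut and CCND2wt. Among list genes it included Htr1b and Hrh4 in CCND2mut and Vec, and Kmo and Sult1a1 in CCND2mut and CCND2wt. Such counts, and the 4 counts of Tph1 in CCND2mut 3, limit how closely those levels are known.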
